A study of Homo sapiens with 28 samples.

Results

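The positions of 2 chromatin proteins, ZHX2 and CTCF, were compared in T47D cells kept in hypoxia. The comparison used every deposited hypoxia peak of either protein on chromosomes 1 to 22 and X, which gave 32343 ZHX2 peaks and 77334 CTCF peaks, or 109677 of the 349107 peaks in the 8 lists of the study. T47D is an established luminal breast cancer cell line, and the positions were read by chromatin immunoprecipitation followed by sequencing (ChIP-seq). Of the 28 samples, 2 were hypoxia ZHX2 immunoprecipitations and 2 were hypoxia CTCF immunoprecipitations, both of endogenous protein; the labels give no oxygen level or time for the hypoxia. Further lists served as readouts at the same sites, though some measure ZHX2 or CTCF again. In hypoxia they were acetylated histone H3 lysine 27 (H3K27ac) and Flag-tagged ZHX2. The tagged ZHX2 was in a wild-type form (WT) and a mutant form that the labels call PA. In normoxia they were ZHX2, CTCF and H3K27ac. Each group had 1 deposited peak list with no values per replicate, and the read depth is unknown, so no difference below has a replicate check and none was tested. Intervals are 95% Wilson intervals over peaks or genes, which cover counting error only, and neighbouring peaks are not independent.

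ZHX2 belongs to a small family of proteins that carry zinc fingers and homeodomains, and it is a known substrate of the VHL ubiquitin ligase, the same ligase that marks HIF subunits for destruction when oxygen is present. CTCF is a zinc finger protein that binds a long GC-rich sequence and stops the cohesin ring as it extrudes chromatin, so that CTCF sites anchor chromatin loops and insulate domains. CTCF also binds at many promoters, and H3K27ac marks active promoters and enhancers. The title of the study names ZHX2 and chromatin architecture in hypoxia, and the comparison answers how far ZHX2 peaks lie at CTCF sites. As a check of the label, H3K27ac in hypoxia lay at all 20 luminal genes examined, at 5 of 11 basal and myoepithelial genes and at 5 of 16 immune and stromal genes, beside 65.2% of all protein-coding genes.

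Promoters with a ZHX2 summit and a CTCF summit are shown first, because they let the spacing of the summits be read on the DNA. Each line is a RefSeq promoter of 300 bases (GRCh38.p14), given from 5′ to 3′ on the strand of the gene, with the annotated start site at base 251. In the MAPK8IP3 promoter (chr16:1705945-1706244, plus strand) the ZHX2 summit is base 158 and the CTCF summit base 177. In the SCAF8 promoter (chr6:154733128-154733427, plus strand) the ZHX2 summit is base 251, the start site itself, and the CTCF summit base 217. The capitals mark the bases between the summits, both included, which are 19 bases apart at MAPK8IP3 and 34 bases apart at SCAF8.
MAPK8IP3: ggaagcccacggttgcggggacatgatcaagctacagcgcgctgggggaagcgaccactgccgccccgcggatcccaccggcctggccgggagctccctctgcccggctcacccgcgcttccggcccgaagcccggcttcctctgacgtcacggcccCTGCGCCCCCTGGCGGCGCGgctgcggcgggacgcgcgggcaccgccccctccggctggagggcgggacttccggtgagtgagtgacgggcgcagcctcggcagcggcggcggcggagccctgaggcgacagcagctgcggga
SCAF8: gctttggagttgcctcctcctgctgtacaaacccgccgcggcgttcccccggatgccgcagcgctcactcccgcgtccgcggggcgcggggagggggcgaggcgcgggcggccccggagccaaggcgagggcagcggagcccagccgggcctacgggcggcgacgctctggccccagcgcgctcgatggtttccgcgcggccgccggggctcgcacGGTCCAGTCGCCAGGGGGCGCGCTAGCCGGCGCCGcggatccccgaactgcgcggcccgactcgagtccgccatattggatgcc

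The core of the known CTCF sequence was searched for on both strands as CCA, any 2 bases, AG, any 2 bases, GGC. NECAP2 (chr1:16440474-16440773, plus strand) was the highest ranked gene with both proteins whose promoter held that core, and MTERF1 (chr7:91880653-91880952, minus strand) is a gene with CTCF alone that holds it. The capitals mark the core, at bases 142 to 153 in NECAP2 and 151 to 162 in MTERF1. The CTCF summit of NECAP2, at base 148, falls inside the core, and its ZHX2 summit, at base 195, lies 47 bases downstream. At MTERF1 the CTCF summit is base 139, and no hypoxia peak of endogenous ZHX2 covers the window. WT and PA Flag peaks and a normoxia ZHX2 peak lay at the ends of that gene.
NECAP2: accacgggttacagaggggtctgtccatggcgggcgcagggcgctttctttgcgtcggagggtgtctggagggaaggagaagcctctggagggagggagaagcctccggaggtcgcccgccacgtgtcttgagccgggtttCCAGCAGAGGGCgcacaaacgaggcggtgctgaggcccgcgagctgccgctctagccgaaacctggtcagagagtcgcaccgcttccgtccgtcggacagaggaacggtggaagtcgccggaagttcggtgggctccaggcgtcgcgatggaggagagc
MTERF1: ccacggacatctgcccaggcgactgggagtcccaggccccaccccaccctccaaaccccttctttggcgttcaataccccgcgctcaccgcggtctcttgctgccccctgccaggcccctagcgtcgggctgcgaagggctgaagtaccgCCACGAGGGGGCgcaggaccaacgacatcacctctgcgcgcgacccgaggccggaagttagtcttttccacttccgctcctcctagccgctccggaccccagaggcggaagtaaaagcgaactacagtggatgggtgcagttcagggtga

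The promoters with 1 protein follow, with capitals for the summit and 10 bases on either side of it, to set beside the shared ones. PGK1 (chrX:78103998-78104297, plus strand) and AP2B1 (chr17:35587072-35587371, plus strand) have a ZHX2 summit, at bases 143 and 185, and no CTCF peak. C1orf52 (chr1:85259613-85259912, minus strand) has a CTCF summit at base 139 and no hypoxia peak of endogenous ZHX2, although WT and PA Flag peaks lay at the gene's ends. PGK1 also holds ACGTG, the core letters of the hypoxia response element read on either strand, at bases 49 to 53, 68 to 72 and 279 to 283. The same letters are in C1orf52, at bases 87 to 91, and in NECAP2, at bases 121 to 125 and 122 to 126, which are overlapping reads of CACGTG on opposite strands. The windows of PGK1, AP2B1, C1orf52, MAPK8IP3 and SCAF8 did not match the CTCF core as spelled, which says only that these letters are not in the window.
PGK1: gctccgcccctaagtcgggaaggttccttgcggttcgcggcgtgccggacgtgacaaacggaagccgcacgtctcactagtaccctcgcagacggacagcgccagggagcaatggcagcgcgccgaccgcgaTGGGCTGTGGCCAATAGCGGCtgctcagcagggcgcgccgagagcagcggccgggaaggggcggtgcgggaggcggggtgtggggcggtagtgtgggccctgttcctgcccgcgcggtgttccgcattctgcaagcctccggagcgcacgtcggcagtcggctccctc
AP2B1: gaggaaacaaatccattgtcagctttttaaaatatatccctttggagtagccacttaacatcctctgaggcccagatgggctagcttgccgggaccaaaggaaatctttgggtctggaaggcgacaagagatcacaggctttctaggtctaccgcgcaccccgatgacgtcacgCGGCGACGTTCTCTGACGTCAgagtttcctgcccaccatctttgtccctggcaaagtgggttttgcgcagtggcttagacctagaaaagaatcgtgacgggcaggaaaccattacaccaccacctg
C1orf52: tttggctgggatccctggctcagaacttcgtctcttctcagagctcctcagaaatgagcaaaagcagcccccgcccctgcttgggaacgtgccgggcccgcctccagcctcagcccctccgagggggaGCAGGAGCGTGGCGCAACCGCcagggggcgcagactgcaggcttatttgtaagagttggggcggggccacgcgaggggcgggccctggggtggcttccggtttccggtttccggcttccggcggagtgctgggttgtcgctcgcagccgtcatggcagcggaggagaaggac

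In the lists as deposited, of which the CTCF list is the longer, a larger share of ZHX2 peaks lay on CTCF than of CTCF peaks on ZHX2. Of the 32343 ZHX2 peaks, 14757 overlapped a CTCF peak by at least 1 bp (45.6%, 45.1 to 46.2%) and 17586 did not. Of the 77334 CTCF peaks, 14004 overlapped a ZHX2 peak (18.1%, 17.8 to 18.4%) and 63330 did not. The overlaps covered 40.8% of the bases in ZHX2 peaks and 11.7% of those in CTCF peaks. Where peaks overlapped, 82.6% of ZHX2 summits lay inside the CTCF peak and 77.4% of CTCF summits lay inside the ZHX2 peak. By chromosome the share of ZHX2 peaks with CTCF ran from 37.7% on chromosome 21 to 51.3% on chromosome 2.

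The lists differ in length, width and threshold, which bears on every share. ZHX2 peaks covered 15.1 Mb with a median width of 350 bp, and CTCF peaks covered 52.7 Mb with a median width of 499 bp. The lowest −log10 q was 1.30 in the ZHX2 list and 5.09 in the CTCF list, and the median deposited fold enrichment over background was 3.33 for ZHX2 and 19.0 for CTCF. With the CTCF list shortened by score to the length of the ZHX2 list, 18.9% of ZHX2 peaks overlapped CTCF and 16.3% of CTCF peaks overlapped ZHX2. Of the 14757 overlapping pairs in the full lists, 11829 were 1 to 1. Close shares at equal list length therefore follow largely from counting. With only the peaks of a −log10 q of at least 5 in both lists, 53.9% of ZHX2 peaks overlapped CTCF. Whether more ZHX2 peaks lay on CTCF or off it therefore turned with the threshold. With summits within 250 bp in place of overlap the shares were 30.1% of ZHX2 peaks and 12.6% of CTCF peaks.

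Active chromatin and gene ends held most of the shared sites. Among ZHX2 peaks on H3K27ac, 13086 of 23587 overlapped CTCF (55.5%, 54.8 to 56.1%), against 1671 of 8756 off H3K27ac (19.1%, 18.3 to 19.9%). The contrast was wider for CTCF: 12495 of 23601 CTCF peaks on H3K27ac overlapped ZHX2 (52.9%, 52.3 to 53.6%), against 1509 of 53733 off it (2.81%, 2.67 to 2.95%). Within 1 kb of an annotated start or end of a protein-coding gene, 68.8% of 12466 ZHX2 peaks had CTCF, against 31.1% of the 19877 farther away. For CTCF peaks the shares with ZHX2 were 61.1% of 13487 at gene ends and 9.03% of 63847 farther away. The features separated the peaks further in combination. Away from gene ends, 40.1% of 12425 ZHX2 peaks on H3K27ac had CTCF, against 16.1% of 7452 off it. The CTCF peaks that were both off H3K27ac and away from gene ends numbered 50840, or 65.7% of the CTCF list, and 1066 of them overlapped ZHX2 (2.10%).

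The distance from each ZHX2 summit to the nearest CTCF summit had a median of 959 bp, with quartiles of 166 and 8665.5 bp. Within 50 bp of a CTCF summit lay 10.5% of ZHX2 summits, within 100 bp 18.2%, within 250 bp 30.1%, within 1 kb 50.6% and within 10 kb 76.9%. The density of ZHX2 summits was highest at the shortest distances. It was 67.8 summits per bp of distance below 25 bp, 17.6 between 200 and 250 bp, 2.65 between 1 and 2 kb and 0.563 between 5 and 10 kb. In the other direction, the median CTCF summit lay 22819.5 bp from a ZHX2 summit. Where the peaks overlapped, the ZHX2 summit was a median of 141 bp from the nearest CTCF summit, with quartiles of 56 and 357 bp. In normoxia the median ZHX2 to CTCF distance was 994 bp over 14586 ZHX2 summits, and 27.03% lay within 250 bp.

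The same distance was shorter in active chromatin and for stronger ZHX2 peaks. The median was 546 bp for ZHX2 peaks on H3K27ac and 7786 bp for those off it. It was 352 bp at gene ends and 3071 bp away from them. By tertile of the ZHX2 list, ranked by the deposited score (10 times −log10 q), the median was 3041 bp in the lowest, 1083 bp in the middle and 384 bp in the highest. The median over all summits rested on the depth of the CTCF list: it was 13061 bp with the CTCF list shortened to the length of the ZHX2 list, and 7619 bp with the upper 50% of both lists.

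**Figure D1:**
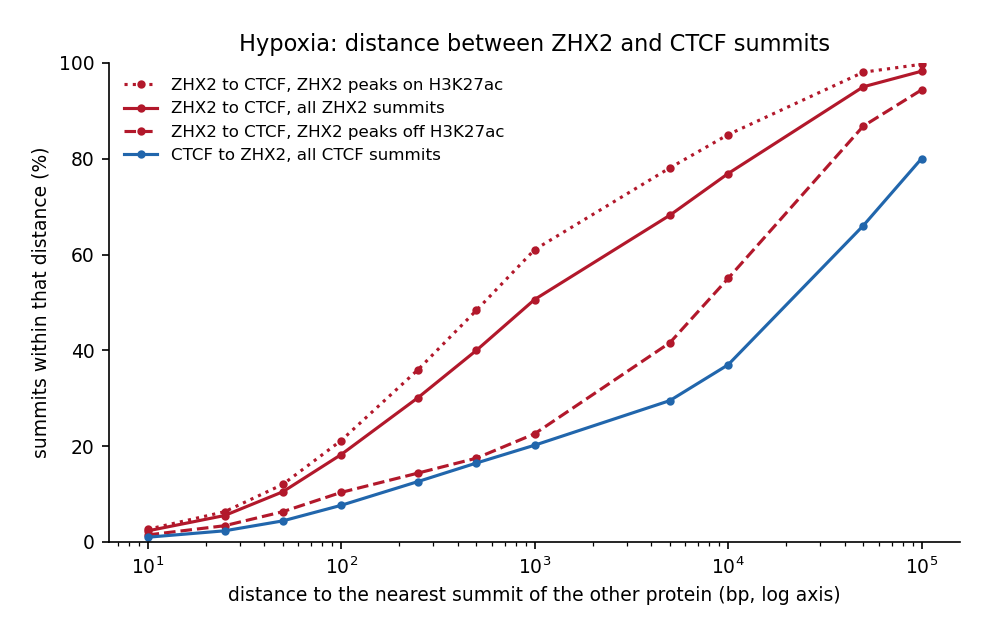
Share of summits (vertical axis, %) that lie within a given distance in bp (horizontal axis, log scale) of the nearest summit of the other protein, for ZHX2 summits on H3K27ac, all ZHX2 summits and ZHX2 summits off H3K27ac (red lines) and for CTCF summits (blue line). At 1 kb the share is 61.0% for ZHX2 peaks on H3K27ac, 50.6% for all ZHX2 summits, 22.6% for those off H3K27ac and 20.2% for CTCF summits.

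Sites of the smallest spacing were not those with the most H3K27ac. ZHX2 peaks whose summit lay under 50 bp from a CTCF summit had H3K27ac in 83.6% of 3338 cases, and those 150 to 300 bp away had it in 90.9% of 2882 cases. Farther away the share was lower, at 70.7% for 1 to 5 kb and 42.0% beyond 20 kb. WT Flag peaks, an independent immunoprecipitation of tagged ZHX2, followed the same order, with 67.0% below 50 bp, 75.5% at 150 to 300 bp and 22.5% beyond 20 kb. Gene ends were near 51.4% of ZHX2 peaks below 50 bp, 61.5% of those at 150 to 300 bp and 13.6% of those beyond 20 kb. Peak width took the same order, and a wider peak overlaps more of any list. The median ZHX2 width was 394 bp below 50 bp, 498.5 bp at 150 to 300 bp, 323 bp at 1 to 5 kb and 269 bp beyond 20 kb. The part of width in these shares was not tested.

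ZHX2 peaks with CTCF had higher shares of H3K27ac, Flag ZHX2, gene ends and normoxia ZHX2 than those without. H3K27ac lay on 88.7% of ZHX2 peaks with CTCF and on 59.7% of those without, a difference of 29.0 percentage points (28.1 to 29.8). WT Flag peaks lay on 74.3% and 37.3%, a difference of 37.0 points (35.95 to 37.96), and PA Flag peaks on 63.5% and 27.9%. Gene ends were near 58.1% of those with CTCF and 22.1% of those without. A normoxia ZHX2 peak was present at 37.5% of those with CTCF and 19.0% of those without. Most ZHX2 peaks with CTCF had it in both conditions, since a normoxia CTCF peak overlapped 93.2% of ZHX2 peaks with hypoxia CTCF and 9.58% of ZHX2 peaks without it. That readout measures CTCF again, the protein that set the classes.

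Width and strength moved with these classes. ZHX2 peaks with CTCF had a median width of 475 bp and a median fold enrichment of 3.61, against 294 bp and 3.17 without CTCF, and a wider peak overlaps more of any list. With every peak reduced to 200 bp around its summit the H3K27ac difference was 19.1 points and the WT Flag difference 21.6 points. Within score tertiles, from lowest to highest, the H3K27ac difference was 32.4, 21.0 and 17.2 points and the WT Flag difference 33.1, 30.3 and 25.01 points.

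The CTCF peaks were set apart more sharply in H3K27ac and gene ends. The Flag and normoxia ZHX2 lists measure ZHX2 again, the protein that set these classes. H3K27ac lay on 89.2% of CTCF peaks with ZHX2 and 17.5% of those without, and WT Flag peaks lay on 75.2% and 7.59%. Gene ends were near 58.8% of CTCF peaks with ZHX2 and 8.29% of those without. A normoxia ZHX2 peak overlapped 38.4% of CTCF peaks with hypoxia ZHX2 and 1.04% of those without. A normoxia CTCF peak overlapped 93.6% of CTCF peaks with ZHX2 and 92.9% of those without, which is the readout in which the classes were closest. The median CTCF fold was 11.6 with ZHX2 and 20.7 without, but the quartiles with ZHX2 reached 5.07 and 83.4.

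**Figure D2:**
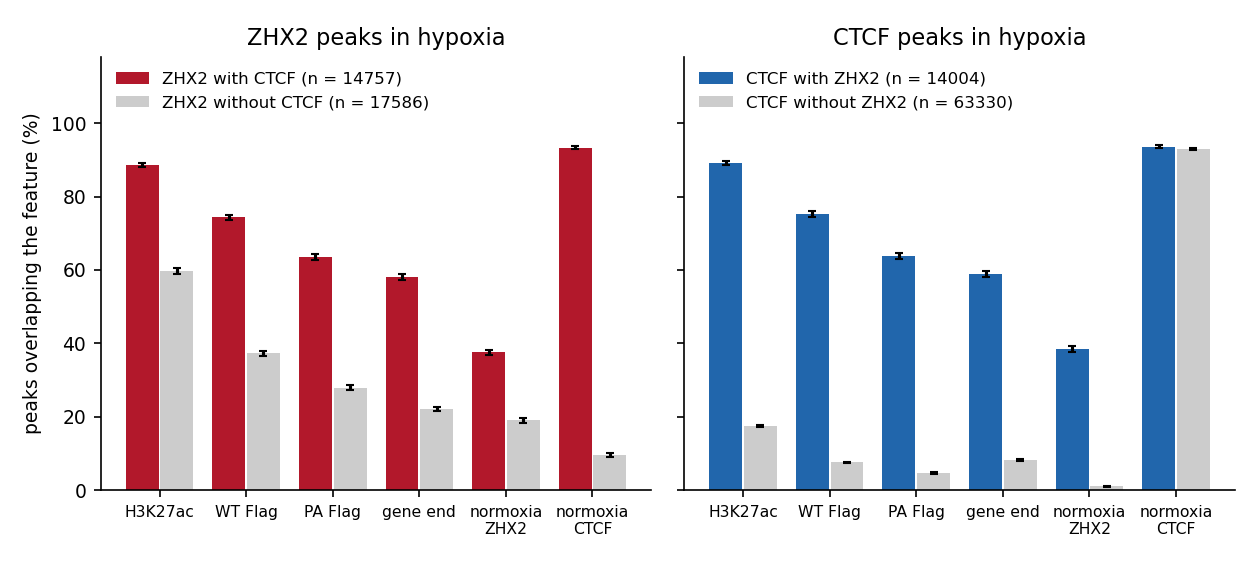
Share of peaks (vertical axis, %, bars start at 0) that overlap each feature, for hypoxia ZHX2 peaks with and without CTCF (left panel) and hypoxia CTCF peaks with and without ZHX2 (right panel), with 95% Wilson intervals as error bars. Peaks with the partner are higher in all 6 features, and the gap is smallest for normoxia CTCF at CTCF peaks, with 93.6% and 92.9%. Normoxia CTCF on the left, and Flag and normoxia ZHX2 on the right, measure again the protein that set the classes.

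By decile of the ZHX2 list, higher scores went with a higher share on CTCF. The share with CTCF was 25.4% in the lowest, 38.8% in the fifth and 74.1% in the highest. Over all peaks it was higher in each decile than in the one below. H3K27ac lay on 53.1% of the peaks in the lowest decile and 91.6% in the highest, and gene ends were near 22.6% and 64.5%. On H3K27ac the share with CTCF rose from 37.5% to 77.5%. Off H3K27ac it was 11.7% in the lowest decile and 36.9% in the highest, but 34.1% in the seventh and 28.2% in the eighth. Width moved with the score, from a median of 268 bp in the lowest decile to 804 bp in the highest. The share of summits within 250 bp of a CTCF summit, a measure without peak width, was 16.1% in the lowest and 45.7% in the highest. The parts of width, H3K27ac and gene ends in these shares were not tested. In the top percent 71.5% overlapped CTCF (231 of 323 peaks) and 35.6% of summits lay within 250 bp of a CTCF summit, both below the highest decile. Of these 323 peaks, 12 lie inside HIF1A, the gene of the oxygen-regulated HIF-1 subunit, with folds of 33.2 to 146, and 0 of them overlapped CTCF. Without these 12 the share was 74.3% (231 of 311). HIF1A held 13 ZHX2 peaks in all, and the 1 that overlapped CTCF is the one at its start, with a fold of 4.52. The 13 peaks had a median width of 445 bp, against 1091 bp in the top percent as a whole. Exons were not analysed here, and the protocols mention lentiviral infection without saying for which samples. Whether these peaks come from ZHX2 bound at the gene was not tested. The peaks inside HIF1A were named after their values were seen.

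CTCF peaks behaved differently, with high shares at both ends of the list. The share with ZHX2 was 30.6% in the lowest decile of CTCF score, 15.1% in the fifth, 10.2% in the eighth and 31.7% in the highest, and in the top percent it was 63.3% (489 of 773). Summits within 250 bp of a ZHX2 summit made up 21.7% of the lowest, 6.63% of the eighth and 24.9% of the highest decile. The list was also divided by H3K27ac. Among CTCF peaks on H3K27ac the share was 60.8% in the lowest decile, 38.1% in the ninth and 56.3% in the highest. Off H3K27ac it was 3.14% in the lowest, between 1.29% and 2.13% from the second to the eighth, 3.75% in the ninth and 10.6% in the highest. In the top percent off H3K27ac, 70 of 234 CTCF peaks had ZHX2 (29.9%, 24.4 to 36.1%). The lowest decile supplied 16.9% of all CTCF peaks with ZHX2 and the highest 17.5%. Gene ends were near 65.5% of the shared CTCF peaks in the lowest decile and 46.8% of those in the highest, and the median distance to the ZHX2 summit was 151 bp in the lowest and 78 bp in the highest.

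Across the 14757 overlapping pairs, taking the CTCF peak with the closest summit, the ZHX2 fold and the CTCF fold had a Spearman correlation of −0.07, which describes pairs that share a site and its background and carries no test. Pairs with summits within 50 bp had a median CTCF fold of 21.0 (3380 pairs), and pairs with summits over 300 bp apart had 24.2 (4322 pairs). The median over all pairs, 14.1, was below both.

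**Figure D3:**
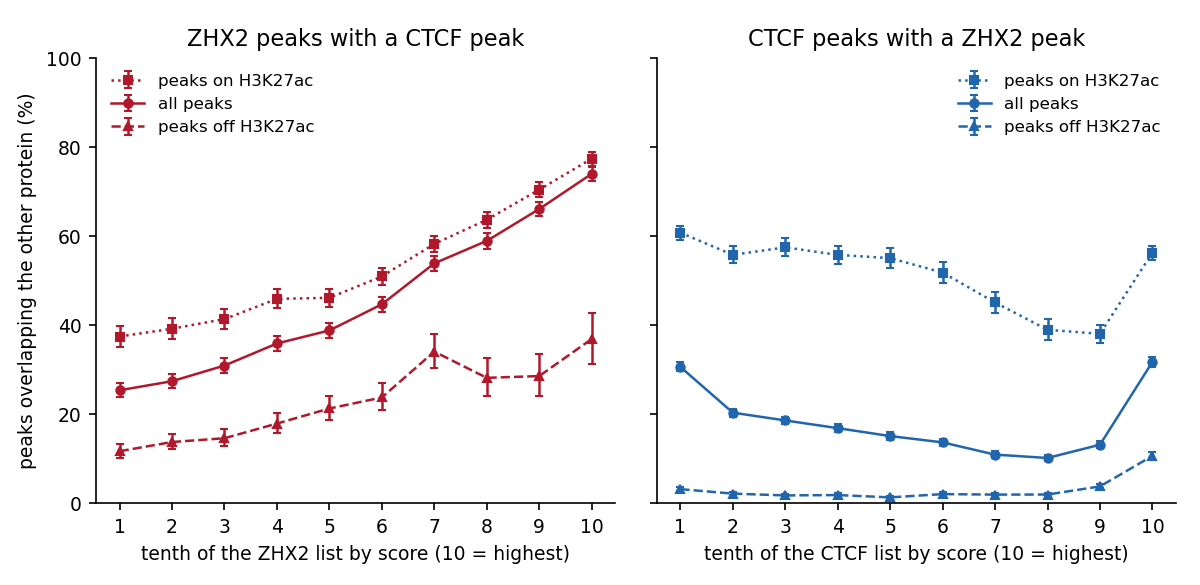
Share of peaks overlapping the other protein (vertical axis, %) by decile of the deposited score from lowest to highest (horizontal axis), for ZHX2 peaks (left) and CTCF peaks (right), on H3K27ac, in all, and off H3K27ac, with 95% Wilson intervals. The ZHX2 share runs from 25.4% to 74.1% over the deciles, and the CTCF share is 30.6% at the low end, 10.2% in the eighth decile and 31.7% at the high end.

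In the lists as deposited, more genes had ZHX2 and CTCF than either alone, and this order turned with the length of the lists. Of 19821 protein-coding genes, 9162 had a ZHX2 and a CTCF peak within 1 kb of an annotated start or end (46.2%, 45.5 to 46.9%). ZHX2 alone was found at 1992 genes (10%), CTCF alone at 2650 (13.4%) and neither at 6017 (30.4%). Of genes with ZHX2, 82.1% had CTCF, against 30.6% of genes without ZHX2. Among genes with H3K27ac, ZHX2 was present at 85.6% of those with CTCF and 59.8% of those without; among genes without H3K27ac the shares were 26.9% and 6.68%. With the CTCF list shortened to the length of the ZHX2 list, 3660 genes had both, 7494 ZHX2 alone and 1261 CTCF alone. With the upper 50% of both lists, 3386 had both and 4882 ZHX2 alone.

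At most of the 9162 genes with both, a ZHX2 and a CTCF peak overlapped. Such an overlap was present at 8391 genes (91.6%). The nearest summits were a median of 156 bp apart with quartiles of 60 and 380 bp. They were within 100 bp at 37.0% of genes and within 250 bp at 63.4%. Both peaks had to touch a 1 kb window at the gene's ends, and the closest pair was taken, so part of this closeness is set by the class. At 595 genes the nearest summits were over 1 kb apart. MCM5, a subunit of the replicative helicase, is such a case, with a ZHX2 peak of 17.9-fold and a CTCF peak of 34.4-fold whose summits lie 54987 bp apart at opposite ends of the gene. H3K27ac lay at the ends of 95.2% of genes with both, 82.3% with ZHX2 alone, 55.2% with CTCF alone and 18.3% with neither. WT Flag peaks lay at 89.3%, 74.5%, 45.4% and 11.9% of the same classes. Of the genes with ZHX2 alone in hypoxia, 604 (30.3%) had a CTCF peak in normoxia. The share was 95.5% of genes with both, 94.1% with CTCF alone and 7.06% with neither. The normoxia CTCF list is the longer, with 88248 peaks against 77334 in hypoxia, and its part in these shares was not tested.

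The classes depend on a window. A CTCF peak that overlapped the gene's ZHX2 peak just outside the 1 kb window was present at 54 of the 1992 genes with ZHX2 alone, and a ZHX2 peak placed likewise at 97 of the 2650 genes with CTCF alone. The median distance to the nearest summit of the missing protein was 10545 bp for ZHX2 alone and 26765 bp for CTCF alone.

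The genes ranked highest for both proteins carried ZHX2 and CTCF peaks that were each in about the top percent of their list. AP5S1, a subunit of an adaptor complex of endosomes, had a ZHX2 peak of 13.5-fold (chr20:3819875-3820998) and a CTCF peak of 374-fold, with summits 387 bp apart. SCAF8, which binds the tail of RNA polymerase II, had 13.2-fold and 298-fold with summits 34 bp apart, in the promoter printed above. LRRC37A3 had 10.7-fold and 561-fold with summits 35 bp apart, and MTRES1, a mitochondrial RNA-binding protein, had 11.4-fold and 334-fold with summits 991 bp apart. MAPK8IP3, a scaffold of JNK signalling, EME2, a subunit of a structure-specific nuclease, and MRPS34, a mitochondrial ribosomal protein, are neighbours that share 1 ZHX2 peak of 11.4-fold at chr16:1770400-1772003, so they are not separate cases. At MAPK8IP3 that peak lies at the end away from the printed promoter. Its summit is 65432 bp from the summit of the gene's strongest CTCF peak (316-fold), which is in that promoter. The ZHX2 summit printed there belongs to another peak, which is not the gene's strongest. MVK, mevalonate kinase, had its strongest ZHX2 peak (24.2-fold) and its CTCF peak (311-fold) at opposite ends, 24592 bp apart by summit, and a second ZHX2 peak 105 bp from the CTCF summit.

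The strongest ZHX2 peaks at genes with ZHX2 alone were mostly several kb from any CTCF summit. TMEM91 led with 60.8-fold (chr19:41363736-41364842), with the nearest CTCF summit 10155 bp away. PGK1, the glycolytic enzyme phosphoglycerate kinase and a classic HIF target, followed with 42.5-fold (chrX:78103702-78104433) and a CTCF summit 11533 bp away; a normoxia CTCF peak lay at its ends. The zinc finger gene ZNF41 had 40.8-fold, TMEM187 33.1-fold and the lysine methyltransferase gene SETD4 29.8-fold, with CTCF summits 14715, 18418 and 27069 bp away. TOR1A, the gene of the endoplasmic reticulum ATPase torsin-1A, had 28.0-fold and AP2B1, a clathrin adaptor subunit, 27.9-fold, with CTCF 11274 and 8649 bp away. ZC3H4, which restrains non-coding transcription, was the exception, with 28.5-fold and a CTCF summit 377 bp from its ZHX2 summit, outside the window of the gene's ends. H3K27ac lay at the ends of all 8.

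The strongest CTCF peaks at genes with CTCF alone fell into unlike settings. LOC124907874 had 534-fold and OR2AJ1, an olfactory receptor gene, 401-fold, but a ZHX2 summit lay 45 and 87 bp from their CTCF summits, outside the gene windows, and PIM2, a serine/threonine kinase gene, had 386-fold with ZHX2 at 112 bp. SERPINA12, which encodes the adipokine vaspin, had 443-fold with the nearest ZHX2 summit 50370 bp away, and ASNS, asparagine synthetase, had 396-fold with ZHX2 56106 bp away, inside a RefSeq promoter window that is not at an annotated end of that gene. MTERF1, a mitochondrial transcription terminator, had 392-fold with ZHX2 60063 bp away. TMEM141 had 405-fold and MYO1F, a myosin of immune cells, 400.2-fold, with ZHX2 2284 and 4633 bp away. H3K27ac lay at the ends of 5 of these 8 genes, all but OR2AJ1, MYO1F and ASNS. WT and PA Flag peaks lay at the ends of LOC124907874, TMEM141, MTERF1 and PIM2, and normoxia ZHX2 peaks at those of TMEM141 and MTERF1.

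Genes of the proteins themselves, of oxygen sensing and of the luminal lineage were read singly. ZHX2 itself carried a ZHX2 peak of 28.6-fold and a CTCF peak of 60.8-fold, and its closest pair of summits was 9 bp apart. CTCF carried 8.58-fold ZHX2 and 152-fold CTCF, with summits 382 bp apart. VHL had 3.28-fold and 4.97-fold with summits 129 bp apart, HIF1A 4.52-fold and 31.9-fold with 715 bp, and EPAS1, which encodes HIF-2 alpha, 4.16-fold and 33.0-fold with a closest pair at 126 bp. Of the HIF targets, VEGFA, the angiogenic growth factor, had 3.01-fold ZHX2 and 299-fold CTCF 131 bp apart, SLC2A1, the glucose transporter GLUT1, 5.31-fold and 9.10-fold 208 bp apart, and NDRG1, a stress-response gene, 5.65-fold and 10.4-fold with a closest pair at 54 bp. CA9, a carbonic anhydrase, and EGLN3, an oxygen-sensing prolyl hydroxylase, had no hypoxia peak of endogenous ZHX2 or of CTCF at their ends. WT Flag peaks lay at the ends of both genes, and PA Flag and normoxia CTCF peaks at those of EGLN3. The luminal factors GATA3 and XBP1 had both, although the GATA3 summits were 30204 bp apart, at opposite ends; ESR1, the oestrogen receptor gene, had neither at its annotated ends. The oncogenes MYC and CCND1 had both, with closest summits 480 and 132 bp apart.

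The gene lists are described by counts, and no list was tested. Over all protein-coding genes 46.2% had both, 10% ZHX2 alone and 13.4% CTCF alone. Among protein-coding genes with H3K27ac these shares were 67.5%, 12.7% and 11.3%. Lists differ in how many of their genes have H3K27ac, so both backgrounds stand beside each list. Folds are those of the strongest peak of each protein at the gene, and distances those between its closest ZHX2 and CTCF summits. Of 36 hypoxia-induced genes, 24 had both, 4 ZHX2 alone, 3 CTCF alone and 5 neither. H3K27ac lay at 33 of the 36. The mitophagy receptor gene BNIP3L led those with both, with ZHX2 at 9.18-fold and CTCF at 24.3-fold 18 bp apart, ahead of the prolyl hydroxylase gene EGLN1, at 8.95-fold and 23.3-fold 82 bp apart, and ANKRD37, at 8.28-fold and 4.98-fold 458 bp apart. The 4 with ZHX2 alone were PGK1, PDK1 (5.14-fold), which restrains pyruvate oxidation, TMEM45A (4.07-fold) and LDHA (2.86-fold), lactate dehydrogenase. CTCF alone lay at CA12 (6.16-fold), a carbonic anhydrase, PFKFB4 (5.91-fold), a regulator of glycolysis, and RORA (5.46-fold), a nuclear receptor. Of 13 oxygen-sensing and ZHX family genes, 10 had both and 3 had neither, and H3K27ac lay at 11.

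Of 17 glycolysis genes, 10 had both, 2 ZHX2 alone (PGK1 and LDHA), 2 CTCF alone and 3 neither. Pyruvate kinase, PKM, had ZHX2 at 8.63-fold and CTCF at 119-fold with summits 7 bp apart, and CTCF alone lay at TPI1 (141-fold), triosephosphate isomerase, and ENO2 (107-fold), an enolase. Of 23 genes of oxidative phosphorylation, 13 had both, 6 ZHX2 alone, 3 CTCF alone and 1 neither. ZHX2 alone was strongest at NDUFS1 (5.20-fold), a subunit of complex I, and UQCRC2 (4.70-fold) and UQCRFS1 (4.05-fold), subunits of complex III. H3K27ac lay at the ends of 15 of the 17 glycolysis genes and of all 23 genes of oxidative phosphorylation.

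Genes of the looping machinery had both proteins in 15 of 18 cases. YY1, a looping factor, had ZHX2 at 43.9-fold (chr14:100237890-100240704) and CTCF at 292-fold with summits 314 bp apart. The cohesin subunits STAG1 and STAG2 had 11.99-fold and 260-fold, 337 bp apart, and 9.51-fold and 214-fold, with closest summits 280 bp apart. ESCO2, which acetylates cohesin, had ZHX2 alone at 4.08-fold, SMC1A, a cohesin ring subunit, had CTCF alone at 9.69-fold, and HDAC8, the cohesin deacetylase, had neither. H3K27ac lay at the ends of all 18, and over all protein-coding genes with H3K27ac 67.5% had both.

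Lineage genes differed in how many had ZHX2. Of 20 luminal genes, 16 had both, AGR2 ZHX2 alone (2.85-fold), 2 CTCF alone, among them TFF1 (7.17-fold), and ESR1 neither. Of 11 basal and myoepithelial genes, 4 had both, MYH11, a smooth muscle myosin gene, had CTCF alone at 145-fold, and 6 had neither. Of 16 immune and stromal genes, 4 had both, 6 CTCF alone and 6 neither; at genes with CTCF alone, the strongest CTCF peaks were at the collagen gene COL1A1 (349-fold), at PECAM1 (124-fold), an endothelial adhesion molecule, and at COL1A2 (73.8-fold). At COL1A1 a ZHX2 summit lies 918 bp from the CTCF summit, outside the gene window. H3K27ac moved with these counts, as given above for the 3 lists, and its part in them was not tested.

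Of 28 invasion and matrix genes, 14 had both, 2 ZHX2 alone, 6 CTCF alone and 6 neither. ZHX2 alone lay at the integrin gene ITGB1 (4.97-fold) and the fibronectin gene FN1 (2.56-fold), and CTCF alone lay, among others, at LOXL2 (107-fold), a lysyl oxidase, and PLAUR (46.8-fold), the urokinase receptor gene. Of 20 NF-kappaB pathway genes, 13 had both, 3 ZHX2 alone, 1 CTCF alone and 3 neither; the inhibitor gene NFKBIE had 7.85-fold ZHX2 and 286-fold CTCF 121 bp apart, and IL6 had CTCF alone at 112-fold. Of 26 cell cycle genes, 14 had both, 4 ZHX2 alone, 6 CTCF alone and 2 neither. ZHX2 alone lay at CDK1 (3.64-fold), the mitotic kinase, and CTCF alone at MCM3 (137-fold), another helicase subunit. H3K27ac lay at 16 of the 28 invasion and matrix genes, 17 of the 20 NF-kappaB pathway genes and all 26 cell cycle genes.

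Of 53 clustered protocadherin genes, which encode neuronal adhesion molecules and are a textbook case of promoter choice through CTCF, 52 had CTCF: 34 had both, 18 CTCF alone and 1 neither. ZHX2 alone was found at none. The 34 are not separate sites, since 22 of them have their annotated end at 1 common ZHX2 peak of 2.33-fold, and the 34 rest on 15 ZHX2 peaks in all. Away from that end, PCDHA3 had ZHX2 at 3.17-fold and CTCF at 146-fold 23 bp apart, and PCDHB8 had 4.15-fold and 96.3-fold 42 bp apart. Of 39 HOX genes, 17 had both, 4 ZHX2 alone, 4 CTCF alone and 14 neither; HOXB5 had 5.94-fold ZHX2 and 238-fold CTCF 9 bp apart, and HOXA9 had CTCF alone at 333-fold, with a ZHX2 summit 86 bp from the CTCF summit, outside the gene window. Of 389 olfactory receptor genes, 1 had both, 6 ZHX2 alone, 24 CTCF alone and 358 neither. H3K27ac lay at 38 of the 53 protocadherin genes, 19 of the 39 HOX genes and 4 of the 389 olfactory receptor genes.

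Of 84 cytosolic ribosomal protein genes, 56 had both, 14 ZHX2 alone, 8 CTCF alone and 6 neither, with ZHX2 alone strongest at RPS27 (15.8-fold) and RPL13A (9.22-fold). Of 77 mitochondrial ribosomal protein genes, 51 had both, 15 ZHX2 alone, 8 CTCF alone and 3 neither, with ZHX2 alone strongest at MRPS10 (10.2-fold). Of 69 replication-dependent histone genes, 39 had both, 13 ZHX2 alone, 4 CTCF alone and 13 neither; H4C11 had ZHX2 alone at 11.99-fold, and neighbouring histone genes share peaks. Of 509 zinc finger genes, 220 had both, 87 ZHX2 alone, 77 CTCF alone and 125 neither, with ZHX2 alone strongest at ZNF41, ZNF264 (17.0-fold) and ZNF43 (9.37-fold). H3K27ac lay at 82 of the 84 cytosolic and 76 of the 77 mitochondrial ribosomal protein genes, 60 of the 69 histone genes and 428 of the 509 zinc finger genes.

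**Figure D4:**
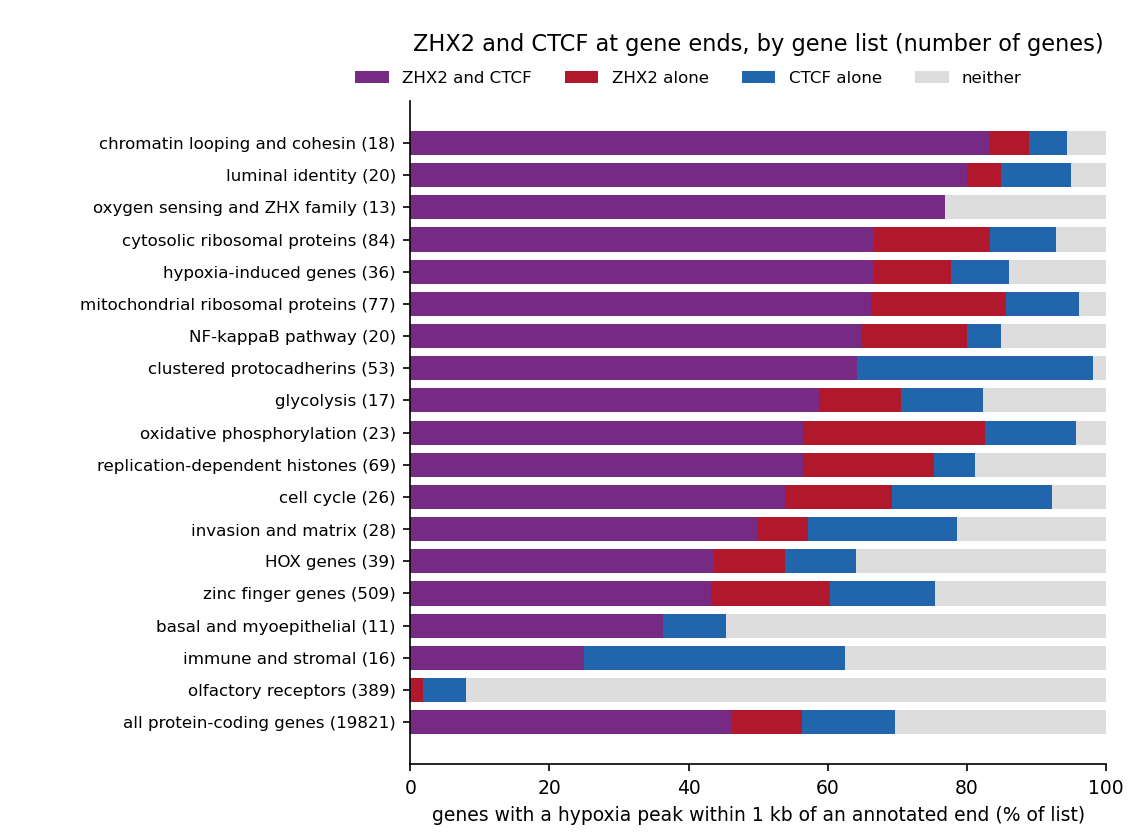
Share of the genes of each list (horizontal axis, %, number of genes in brackets) with ZHX2 and CTCF, ZHX2 alone, CTCF alone or neither within 1 kb of an annotated end, lists ordered by the share with both and all 19821 protein-coding genes at the bottom. Looping genes are at the top with 15 of 18 genes, olfactory receptors at the bottom with 1 of 389, and the protocadherin bar holds 22 genes that share 1 ZHX2 peak.

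Around start sites the summits took different positions. A strand was known for 15812 genes, and 6654 of these had a ZHX2 and a CTCF summit within 1 kb of the start. ZHX2 summits centred on the start, with a median of −17 bp (negative is upstream) and quartiles of −130 and 95 bp, and 45.0% lay within 100 bp of it. CTCF summits were spread more widely, with a median of 23 bp, quartiles of −166 and 221 bp and 27.02% within 100 bp. In bins of 50 bp, ZHX2 summits were most frequent just upstream of the start, at 12.8% of genes, where CTCF summits dipped to 5.26%. CTCF summits were at 7.44% in the bin from 150 to 100 bp upstream and 7.41% in that from 50 to 100 bp downstream. The ZHX2 summit was downstream of the CTCF summit at 3148 genes and upstream at 3487, so the share downstream was 47.3% (46.1 to 48.5%), and the summits were within 100 bp of each other at 33.7% of genes.

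**Figure D5:**
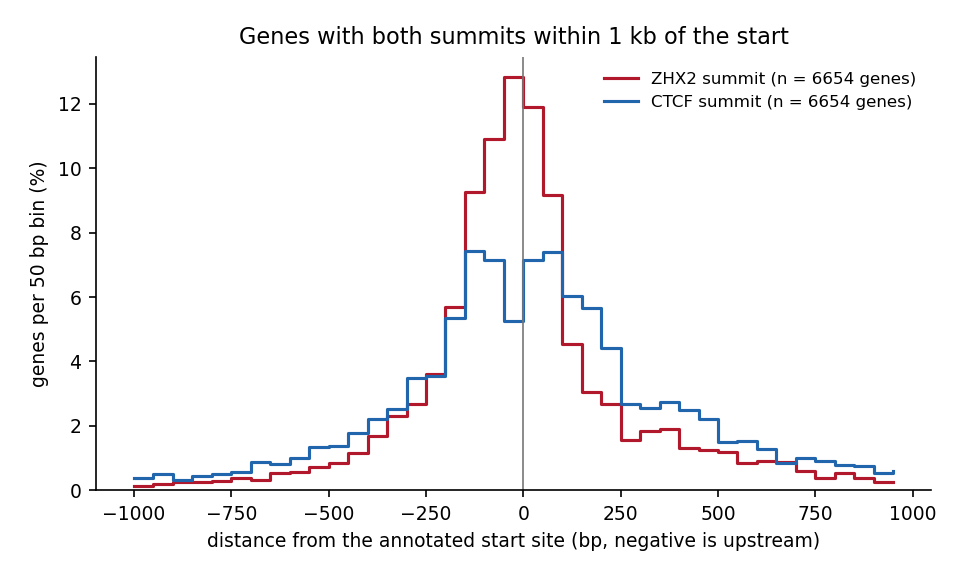
Share of 6654 genes (vertical axis, % per 50 bp bin) whose summit lies at a given distance from the annotated start site (horizontal axis, bp, negative is upstream), for the ZHX2 summit (red) and the CTCF summit (blue) of genes with both within 1 kb. ZHX2 peaks at 12.8% in the bin just upstream of the start, where CTCF is at 5.26%.

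Promoter sequence was read for the 15812 genes with a RefSeq promoter window. The CTCF core spelled above was present in 3.89% of promoters covered by both proteins (209 of 5376; 3.40 to 4.44%), 1.22% of those with ZHX2 alone (28 of 2302; 0.843 to 1.75%), 4.98% of those with CTCF alone (80 of 1608; 4.02 to 6.15%) and 1.73% of those with neither, beside 2.72% of all promoters. ACGTG was present in 27.6%, 29.1%, 21.5% and 19.0% of the same classes and in 23.7% of all promoters. A match is a description of the letters and not a bound site, matches of the core and of ACGTG may overlap, and base composition moved with the classes: the median GC content was 69.0% with both, 63.7% with ZHX2 alone, 63.3% with CTCF alone and 54.7% with neither. Its part in the motif shares was not tested. Sequences that differ from the spelled core by even 1 fixed base were not counted.

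The CTCF summit lay closer to the core than the ZHX2 summit did. In the 113 promoters that held the core and a summit of each protein, the ZHX2 summit was a median of 76 bp from the centre of the core and the CTCF summit a median of 18 bp. Within 25 bp of the centre lay 17.7% of the ZHX2 summits (11.8 to 25.8%) and 63.7% of the CTCF summits (54.5 to 72.0%). NECAP2, printed above, shows this arrangement.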

How the data were processed

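Positions came from ChIP-seq of T47D cells. Trimming with cutadapt, alignment tool Bowtie2, peak caller MACS2 and the build GRCh38 (hg38) are named, without versions, per the submitters' processing notes. The authors deposited 1 peak list for each immunoprecipitated group. Pooling of its 2 samples, use of inputs and read depth are not given in the sources used here, and the precision of a single peak is unknown. Nothing in the labels says that those samples came from separate cultures. The score of a peak was 10 times its −log10 q; this score, the −log10 q and the fold enrichment (a ratio to background) are the authors' own and served to rank, describe or filter peaks of 1 list. Fold values of different antibodies are not on 1 scale of binding. Flag lists hold positions alone, and H3K27ac lists are broad peaks without summits. The labels' protocols mention lentiviral infection and selection without saying for which samples.

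Lines outside chromosomes 1 to 22 and X were dropped, which left out 28 ZHX2 and 16 CTCF lines. Overlap means at least 1 bp. A summit is the peak start plus the deposited offset, in columns 2 and 10. Genes are the 19821 protein-coding entries of a RefSeq table of GRCh38.p14 on assembled chromosomes, which gives ends without strand. Strand came from RefSeq promoter windows, matched by gene identifier and chromosome for 15812 genes. Exons, introns and peak sequences were not analysed here.

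The members, gene lists and alternatives were chosen with earlier results of these data known. Named genes are the 8 highest per class (by the lower of the percentile ranks of the ZHX2 and CTCF folds, or by the fold of the protein present), up to 3 members per list and class by fold (for genes with both, by the ZHX2 fold), and 16 fixed genes; PCDHA3, the peaks inside HIF1A and members of classes of 5 or fewer beyond these were chosen after their values were seen. A few genes chosen by this rule are not reported here. Printed promoters are the 2 highest ranked per class outside the chromosomes not printed, read as requiring that the class also held in the window, and the highest ranked with both and the CTCF core. Alternatives were stricter overlaps, shorter lists, other windows, merged lines and all contigs. Steps were tested on simulated data. Tools were Python 3.11.15, numpy 2.4.6, pandas 2.3.3, scipy 1.17.1 and matplotlib 3.10.9.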

Additional observations from a re-analysis of the deposited data

How the results depend on the processing

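Of 53 values recomputed under alternatives, 20 stayed close to the reported value and 33 moved, where close means within 1.5 times the reported count for genes and inside the 95% interval of the reported value for shares, distances and differences. The order of on and off CTCF among ZHX2 peaks, and that of both and ZHX2 alone among genes, turned under the settings that gave 53.9% of peaks, 3386 genes and 3660 genes. The share of ZHX2 peaks with CTCF, 45.6% as reported, was 41.3% with an overlap of at least 50% of the shorter peak, 30.1% with summits within 250 bp, 27.3% with peaks reduced to 200 bp, 27.5% in the upper 50% of each list, 53.9% at a −log10 q of at least 5 and 18.9% with the CTCF list shortened to the length of the ZHX2 list. The share of CTCF peaks with ZHX2, 18.1% as reported, was 16.5%, 12.6%, 11.4%, 10.7%, 15.1% and 16.3% in the same order. The median distance to the partner's summit was 7619 bp for ZHX2 and 54667 bp for CTCF in the upper 50%, 610 and 34844 bp at a −log10 q of at least 5, and 13061 and 25560 bp with the shortened CTCF list. Genes with both numbered 3386 in the upper 50% and 3660 with the shortened list, genes with ZHX2 alone 4882 and 7494, and genes with CTCF alone 1261 with the shortened list; over all annotated genes 3411 had ZHX2 alone and 7157 CTCF alone. The H3K27ac difference between ZHX2 peaks with and without CTCF was 19.1 points on 200 bp peaks and 32.4, 21.0 and 17.2 points by score tertile from lowest to highest, and the WT Flag difference 21.6 points and 33.1, 30.3 and 25.01 points. Shorter lists and narrower peaks hold fewer bases to overlap; the cause of the other moves was not tested. Merged lines and all contigs changed no result they were run on beyond its interval.

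No paired analysis was possible because each group has 1 list and no values per replicate, and leaving out a replicate was not possible for the same reason. Sequencing depth is unknown, and a site absent from a list is one that did not pass that list's threshold.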
